A study of Mus musculus with 2 samples.

Results

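The NMDA receptor subunit genes are the 7 genes Grin1, Grin2a, Grin2b, Grin2c, Grin2d, Grin3a and Grin3b. They were chosen by symbol, as the deposited transcript table pairs symbols with gene identifiers, and are 7 of 55536 annotated mouse genes and 7 of 22015 nuclear protein-coding genes. They carry 39 annotated transcripts in GENCODE M21: 14 of Grin1, 6 of Grin2a, 7 of Grin2b, 2 of Grin2c, 3 of Grin2d, 4 of Grin3a and 3 of Grin3b. No member was left out.

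The RNA was total RNA from tissue labelled a layer of hippocampus, with no layer named, taken from adult female mice of strain 5xFAD/CAST aged 8 to 10 months and obtained from The Jackson Laboratory. 5xFAD is a transgenic mouse model of Alzheimer's disease whose transgenes are driven in neurons by a Thy1 promoter, and CAST is the wild-derived CAST/EiJ line. The labels describe a cross of these strains and do not say whether each animal carried the transgenes. There were 2 libraries, given as biological replicates 1 and 2 of 1 group, with no control or second condition, so levels, shares and the spread between the libraries are given without a test. Both libraries cite the same donor record but separate tissue records, so the labels do not settle whether they came from separate animals, and every SD here (n = 2) measures only the spread between these libraries.

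The NMDA receptor is a glutamate-gated cation channel assembled from several subunits that opens when glutamate is bound, the co-agonist glycine or D-serine is bound, and depolarisation lifts a magnesium ion from the pore. GluN1, encoded by Grin1, is obligatory and binds the co-agonist. The GluN2 subunits, encoded by Grin2a to Grin2d, bind glutamate and set the kinetics and the scaffold and kinase contacts of the receptor. GluN2A and GluN2B are the main GluN2 subunits of adult hippocampal principal cells, GluN2C is known best from cerebellar granule cells and astrocytes, and GluN2D from interneurons, thalamus and brain stem. GluN3A and GluN3B, encoded by Grin3a and Grin3b, bind glycine and lower calcium entry and magnesium block.

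Grin1 transcripts differ by 3 splice choices, and the sequences of these pieces are shown because the isoform results below turn on them. The N1 cassette adds a stretch to the extracellular amino-terminal domain, the C1 cassette adds a stretch to the intracellular tail that holds an endoplasmic reticulum retention signal, and the choice of last splice acceptor gives the tail either a C2 or a C2′ end. Grin3a has a further optional piece at the start of its last exon, and a longer GluN3A form is known from rat. The sequences are GENCODE M21 transcript sequence, read 5′ to 3′ on the minus strand of mm10. Capitals mark the optional piece, or for C2 and C2′ the coding part of the last exon. Lower case marks 9 bases of the neighbouring exon on the 5′ side, and on the 3′ side 9 bases of the next exon or, for the tails, the stop codon.
N1: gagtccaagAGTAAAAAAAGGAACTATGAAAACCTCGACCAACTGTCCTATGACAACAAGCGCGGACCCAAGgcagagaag
C1: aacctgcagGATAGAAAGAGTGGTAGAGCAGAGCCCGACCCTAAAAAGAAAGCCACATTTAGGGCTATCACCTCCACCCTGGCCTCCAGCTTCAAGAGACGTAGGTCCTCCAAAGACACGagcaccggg
C2: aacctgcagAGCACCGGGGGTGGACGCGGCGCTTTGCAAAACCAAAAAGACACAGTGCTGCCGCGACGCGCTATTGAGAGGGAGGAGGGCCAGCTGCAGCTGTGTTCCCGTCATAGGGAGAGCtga
C2′: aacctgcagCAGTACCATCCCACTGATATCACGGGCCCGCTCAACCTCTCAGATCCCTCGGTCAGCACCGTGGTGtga
Grin3a insert: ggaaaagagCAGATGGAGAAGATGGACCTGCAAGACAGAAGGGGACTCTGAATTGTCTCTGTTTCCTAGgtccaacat

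The N1 cassette is an internal coding exon of 63 bases at chr2:25311343-25311405, and the C1 cassette is an internal coding exon of 111 bases at chr2:25294438-25294548. The C2 coding part covers 114 bases at chr2:25292371-25292484, and the C2′ coding part, which starts at an acceptor further downstream in the same exon, covers 66 bases at chr2:25292063-25292128. The Grin3a insert covers 60 bases at chr4:49665566-49665625, at the 5′ end of the last coding exon. Each of these lengths is a multiple of 3. For each of N1, C1 and the Grin3a insert, 1 transcript that lacks it was checked (Grin1-201, Grin1-202 and Grin3a-201): there the flanking bases shown were found joined to each other 1 time and the piece itself was not found. In transcripts that end in C2′ without C1, the 5′ flank joins the C2′ sequence instead, as the printed line shows.

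The libraries held 27816845 and 32316737 expected counts over all rows, of which 67308 (0.243%) and 82721 (0.257%) of the counts on mouse genes fell on the 7 genes. Levels are in TPM, which divides the reads of a gene by its effective length and scales every library to the same total, so that genes can be compared with each other. A gene was called detected at 1 TPM or more in both libraries. By that rule 6 of the 7 genes were detected and Grin3b was not, against 60.2% of nuclear protein-coding genes and 27.7% of all mouse genes.

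Neuronal and hippocampal markers were present in both libraries. All 53 markers on 11 lists for neurons, hippocampal fields, interneurons, glia and endothelium were detected, against 60.2% of nuclear protein-coding genes. The highest of each list, as mean TPM ± SD (n = 2), was Camk2a for pyramidal cells (1234 ± 84.3), Snap25 for all neurons (877 ± 63.1), Mpped1 for CA1 (70.8 ± 6.09), Cpne4 for CA3 and CA2 (47.9 ± 1.17), Fam163b for dentate granule cells (46.2 ± 3.61) and Sst for interneurons (150 ± 16.6). For glia and vessels it was Mbp for oligodendrocytes (865 ± 123), Tnr for their precursors (53.7 ± 1.51), Slc1a2 for astrocytes (824 ± 17.3), C1qa for microglia (158 ± 12.4) and Slco1a4 for endothelium (15.6 ± 0.651). Of the lists for neighbouring tissue, 4 of 4 thalamus markers, 3 of 4 choroid plexus markers and 1 of 4 cerebellar granule cell markers were detected. Beside the 60.2% of nuclear protein-coding genes, counts on such short lists do not show by themselves that a tissue was present. In bulk tissue, fewer cells of a type and less RNA per cell cannot be told apart.

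Grin1, the gene of the obligatory subunit, had the highest level of the family. Replicate 1 had 154.29 TPM and replicate 2 had 160.73 TPM (158 ± 4.55, SD, n = 2), rank 415 of the 22015 nuclear protein-coding genes. The gene spans chr2:25291181-25319187 on the minus strand.

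Grin2a, which encodes GluN2A, came next at 129.49 and 131.76 TPM (131 ± 1.61, n = 2; rank 557). Grin2b, which encodes GluN2B, stood at 106.41 and 115.35 TPM (111 ± 6.32, n = 2; rank 711). The libraries did not overlap between Grin1, Grin2a and Grin2b, and the order was the same in each. Grin2a spans chr16:9567898-9995560 and Grin2b chr6:135713233-136173511, both on the minus strand and both far longer than the other members.

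Grin2c was lower by a wide margin, at 21.40 and 21.47 TPM (21.4 ± 0.0495, n = 2; rank 5104). Grin3a followed at 12.41 and 14.32 TPM (13.4 ± 1.35, n = 2; rank 7178), and Grin2d at 5.71 and 4.26 TPM (4.99 ± 1.03, n = 2; rank 10604). The 3 genes kept this order in both libraries without overlap, and each lay above the median of all nuclear protein-coding genes, 4.28 and 4.16 TPM. The median of the 13251 detected ones was 15.25 and 15.33 TPM, and Grin3a and Grin2d lay below it in both libraries. Grin2c spans chr11:115249169-115267243, Grin3a chr4:49661611-49845744 and Grin2d chr7:45831883-45878378, all on the minus strand.

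Grin3b, at chr10:79970715-79977190, stood at 0.05 and 0.09 TPM on 3 and 5 counts. The exact 95% Poisson intervals of these counts, 0.619 to 8.77 and 1.62 to 11.7, cover counting error only and overlap widely, so no difference between the libraries was detectable at this depth. Tmem259, a gene on the opposite strand that overlaps Grin3b, stood at 50.38 and 49.02 TPM. The library kit was directional, but whether the counting used strand is not given in the sources used here.

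**Figure D1:**
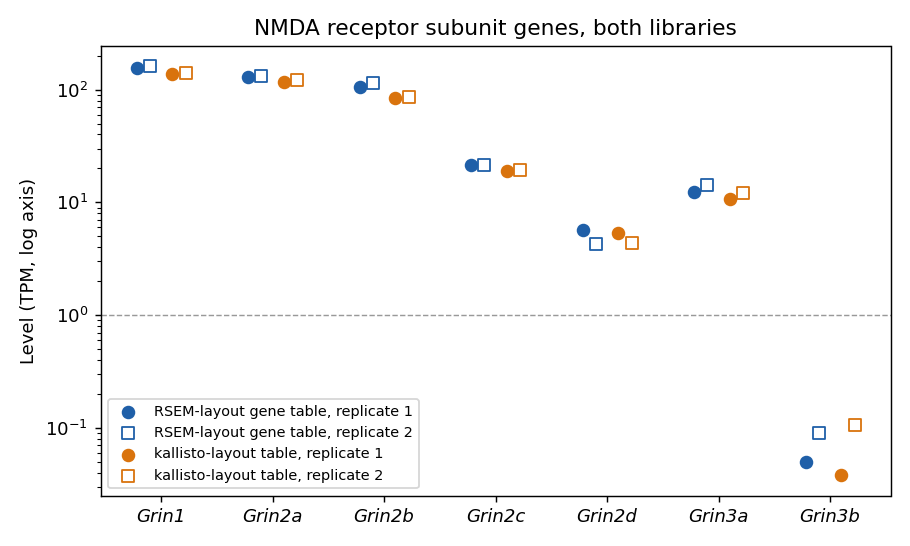
Level of each NMDA receptor subunit gene in TPM on a log axis, with replicate 1 as filled circles and replicate 2 as open squares, from the RSEM-layout gene table (blue) and from the kallisto-layout transcript table summed per gene (orange); the dashed line is the detection threshold of 1 TPM. Grin1, Grin2a and Grin2b lie between 84.6 and 160.73 TPM, and Grin3b lies near or below 0.1 TPM in every estimate.

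The same order of the 7 genes was found in the second deposited estimate, a transcript table in kallisto layout, in both libraries. Its mean levels were lower for the 6 detected genes, between 0.769 of the gene-table mean for Grin2b and 0.979 of it for Grin2d. In replicate 2 Grin2d alone of these was higher in the kallisto-layout table, at 4.38 TPM against 4.26 TPM. Grin2b stood at 84.6 and 85.9 TPM there, and Grin2a at 116 and 121 TPM, so the distance between these 2 genes was wider than in the gene table. Both tables were made from the same libraries and do not replicate each other.

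The GluN2 genes together reached 263 and 273 TPM. Grin2a made up 49.2% and 48.3% of this sum (48.8 ± 0.666%, n = 2) and Grin2b 40.5% and 42.3% (41.4 ± 1.29%, n = 2). Grin2c gave 8.14% and 7.87% (8.00 ± 0.189%, n = 2), and Grin2d 2.17% and 1.56% (1.87 ± 0.431%, n = 2). Thus the genes of the principal-cell subunits GluN2A and GluN2B held most of the GluN2 sum in each library, and the shares of the 4 genes did not overlap.

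The ratio of Grin2a to Grin2b was 1.22 in replicate 1 and 1.14 in replicate 2 (1.18 ± 0.0528, n = 2), above 1 in both. In counts not divided by length the order turned: Grin2b drew 29387 and 37138 counts against 22667 and 27271 for Grin2a, a ratio of 0.771 and 0.734. The effective length was 14058 and 14364 bases for Grin2b and 8911 and 9234 bases for Grin2a. Grin1, with an effective length of 3687 and 3759 bases, had 11177 and 13540 counts, fewer than either, although its TPM was higher.

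**Figure D2:**
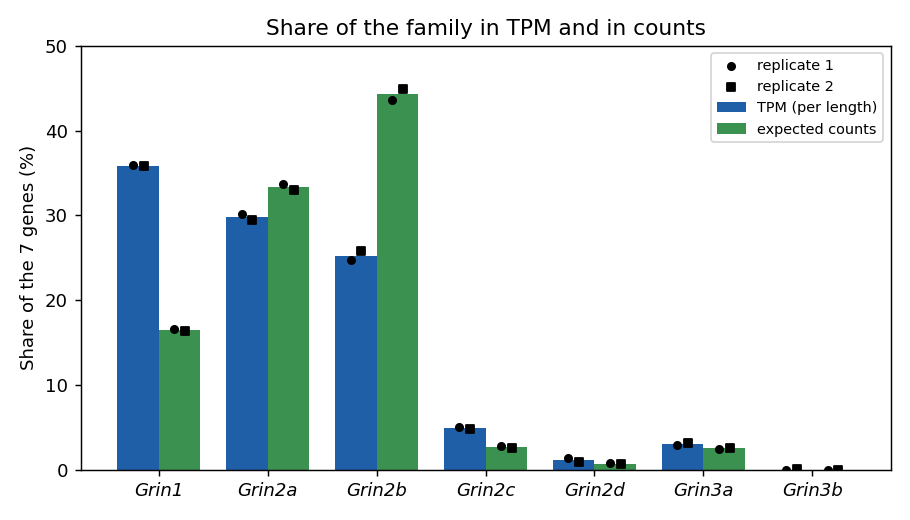
Share of each gene in the summed TPM (blue bars) and in the summed expected counts (green bars) of the 7 NMDA receptor subunit genes, in percent; bars are means of 2 libraries, circles replicate 1 and squares replicate 2. Grin1 holds 35.9% of the TPM but 16.5% of the counts, and Grin2b 25.3% of the TPM but 44.3% of the counts.

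Grin1 reached 0.587 and 0.589 of the summed GluN2 level (0.588 ± 0.00175, n = 2). Grin2a stood at 0.839 and 0.820 of Grin1, Grin2b at 0.690 and 0.718, and Grin3a at 0.0804 and 0.0891. A receptor holds GluN1 together with GluN2 or GluN3 subunits, but these are levels of RNA, and protein was not measured.

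The transcripts behind these levels differed between genes in how much of the level they could encode. A transcript is called full-length coding here if it is annotated as protein coding with a complete end on both sides and holds more than 80% of the gene's longest coding sequence. Such transcripts carried 85.3% and 88.5% of Grin1 TPM, 72.1% and 76.2% of Grin2a TPM, 71.0% and 71.8% of Grin2b TPM, and 86.5% and 78.1% of Grin3a TPM. They carried 91.9% and 100% of Grin2d TPM and all of Grin2c.

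Counted over full-length coding transcripts alone, Grin2a stood at 93.4 and 100.3 TPM and Grin2b at 75.6 and 82.9 TPM. Their ratio was 1.24 and 1.21 (1.22 ± 0.0173, n = 2), still above 1 in both libraries. In the kallisto-layout table the same ratio was 1.25 and 1.22, which is closer to this value than the ratios of 1.37 and 1.41 that its gene sums gave. Grin1 over the GluN2 sum was 0.673 and 0.681 when only such transcripts were counted.

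Grin1 has 8 coding transcripts, which combine the N1, C1 and tail choices in all possible ways. Grin1-201, without N1 and with C1 and C2, stood highest at 51.34 and 52.98 TPM. Grin1-205, without N1 or C1 and with C2′, came next at 41.44 and 42.45 TPM.

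Of the other 6 coding transcripts of Grin1, some rose and others fell between the libraries. Grin1-203, with N1 and C2, had 21.50 TPM in replicate 1 against 4.03 in replicate 2, while Grin1-202, with C2 and neither cassette, stood at 8.03 and 26.16 TPM. Grin1-208, with N1, C1 and C2′, stood at 0.13 and 15.35 TPM, and Grin1-206, with C1 and C2′, at 9.11 and 0 TPM. Grin1-204, with N1, C1 and C2, stood at 0 and 1.23 TPM, and Grin1-207, with N1 and C2′, at 0 in both.

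These single values were not stable against the estimate used. The deposited tables also give a posterior mean and credibility bounds for each transcript, and the deposited TPM lay outside its own bounds for 4 of 8 coding Grin1 transcripts in replicate 1 and 3 of 8 in replicate 2. For Grin1-208 in replicate 2 the posterior mean was 3.58 TPM with bounds up to 10.6, below the TPM of 15.35. In the kallisto-layout table Grin1-208 was at 2.52 and 2.89 TPM, Grin1-203 at 6.67 and 5.71, Grin1-202 at 21.5 and 19.9, and Grin1-204 at 10.5 and 10.7, each close between the libraries. Grin1-201 and Grin1-205 were lower there, at 32.5 and 35.9 TPM and at 33.2 and 36.8 TPM, so that their order was not the same in the different estimates.

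**Figure D3:**
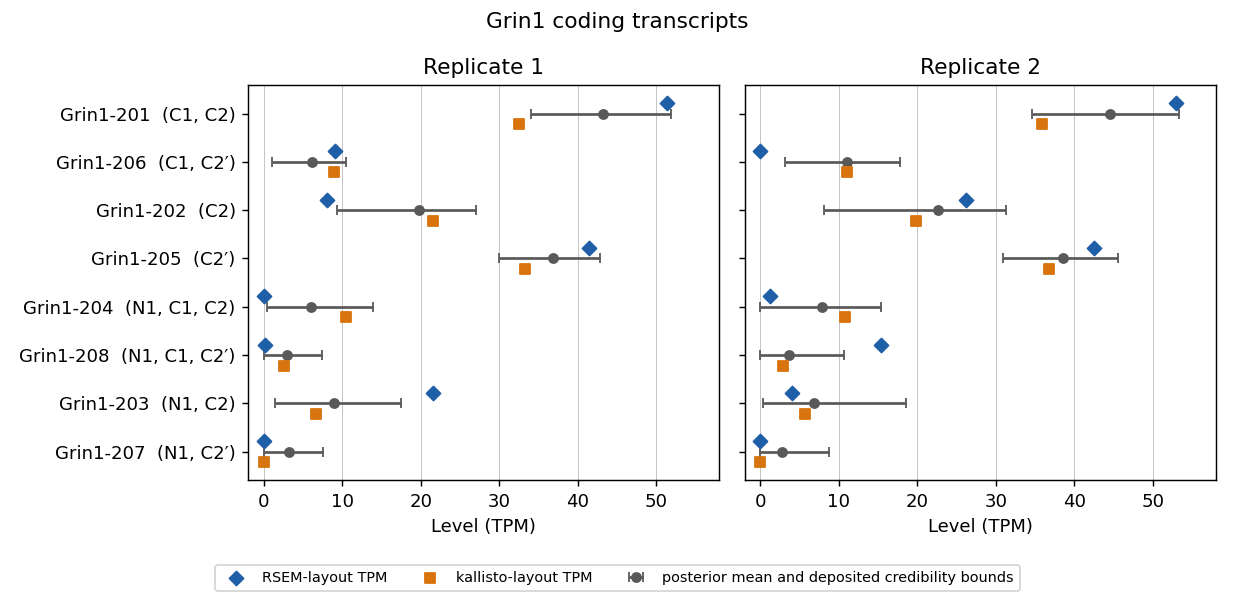
Level in TPM of the 8 coding Grin1 transcripts in replicate 1 (left) and replicate 2 (right), with the cassettes each holds in brackets; blue diamonds are the RSEM-layout TPM, orange squares the kallisto-layout TPM, and grey circles the posterior mean with the deposited credibility bounds as bars. Grin1-201 and Grin1-205 lead in all estimates, while for Grin1-203 and Grin1-208 the diamond lies to the right of the bar in 1 library.

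Summed over transcripts by splice choice, the libraries and estimates differed little. N1 was present in 16.4% and 14.5% of Grin1 coding TPM (15.5 ± 1.38%, n = 2). C1 was present in 46.1% and 48.9% (47.5 ± 2.03%, n = 2). The C2 end was used in 61.5% and 59.4% (60.4 ± 1.5%, n = 2), and the C2′ end in the rest, 39.6% on average.

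The posterior means gave average shares of 15.9% for N1, 47.3% for C1 and 60.4% for C2, and the kallisto-layout table gave 16.3%, 48.1% and 60.1%. The largest of these distances was smaller than the SD between the libraries. The estimates come from the same libraries, so they do not count as separate measurements. Most Grin1 coding RNA therefore lacked the N1 stretch. C1, with its retention signal, was present in slightly less than it was absent from, in each library and each of the 3 TPM estimates. In expected counts C1 was present in 47.4% and 50.2% and absent from 52.6% and 49.8%, so there the order turned in replicate 2.

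The choices at the 3′ end were not combined evenly. C1 with C2 made up 39.0% and 38.1% of Grin1 coding TPM, and neither C1 nor C2, that is C2′ alone, 31.5% and 29.9%. C2 without C1 made up 22.4% and 21.2%, and C1 with C2′ was the least frequent at 7.02% and 10.8%. This order held in both libraries, in the posterior means and in the kallisto-layout table, where C1 with C2′ stood at 9.87% and 11.3%.

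**Figure D4:**
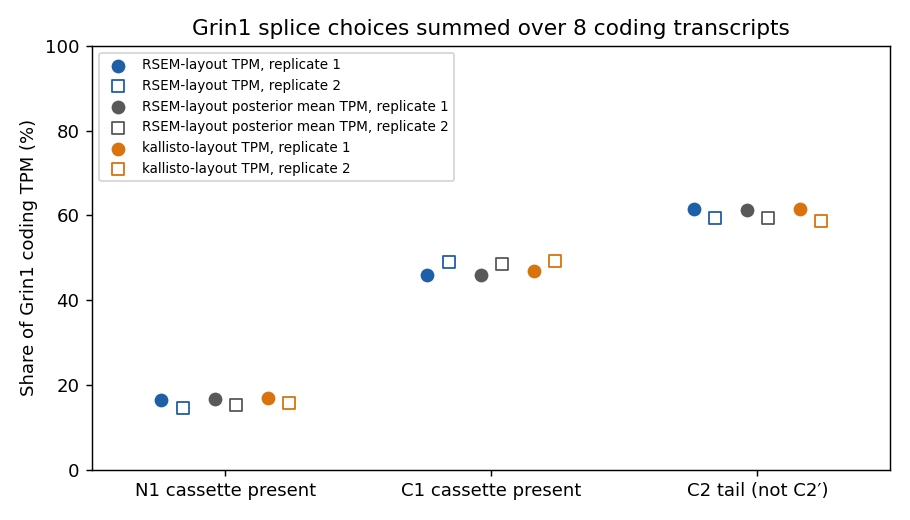
Share of Grin1 coding TPM, in percent, that held the N1 cassette, held the C1 cassette or ended in the C2 tail, summed over the 8 coding transcripts; filled circles are replicate 1 and open squares replicate 2, and colours give the 3 deposited estimates. N1 lies near 16%, C1 near 48% and C2 near 60% in each estimate, although single transcripts differed between them.

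The noncoding transcripts of Grin1 held 14.7% and 11.5% of its TPM. The highest of them, Grin1-214, has 3 exons, ends inside the gene and stood at 7.75 and 6.68 TPM. In the kallisto-layout table it stood at 6.94 and 5.57 TPM.

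All 3 full-length coding transcripts of Grin2a encode the same 1464 codons and differ in their untranslated ends. Grin2a-206, of 14634 bases with a 3′ untranslated region of 9929 bases, stood at 64.93 and 68.06 TPM, or 50.1% and 51.7% of the gene. Grin2a-202, with a 3′ untranslated region of only 86 bases, stood at 26.56 and 28.47 TPM, and Grin2a-201, annotated with none, at 1.87 and 3.82 TPM. The kallisto-layout table divided the short forms differently, with Grin2a-202 at 8.93 and 8.11 TPM and Grin2a-201 at 17.9 and 21.2 TPM, and kept Grin2a-206 first at 55.6 and 57.3 TPM.

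Grin2a also had 25.9 ± 2.87% (n = 2) of its TPM on 3 transcripts with no coding sequence. The retained-intron transcript Grin2a-204, a single exon of 3906 bases at the 5′ end of the gene, stood at 13.87 and 15.26 TPM, and Grin2a-203, also a retained-intron transcript, at 14.48 and 9.39 TPM. Grin2a-205, of 602 bases, stood at 7.77 and 6.76 TPM, but at 17.3 and 21.1 TPM in the kallisto-layout table, where Grin2a-203 stood at 3.44 and 0 TPM. Because these transcripts are short, they held 25.9% of the Grin2a TPM on 6.004% of its expected counts.

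Grin2b followed the same plan. Its 2 full-length coding transcripts encode 1482 codons each. Grin2b-201, of 24060 bases with a 3′ untranslated region of 18865 bases, stood at 54.69 and 61.25 TPM, or 51.4% and 53.1% of the gene. Grin2b-202, with 2272 bases of 3′ untranslated region, stood at 20.87 and 21.61 TPM. The long form thus made up 72.4% and 73.9% of the full-length coding TPM, and 76.9% and 78.1% in the kallisto-layout table.

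The rest of Grin2b lay mainly on 4 incomplete coding transcripts, with 30.9 and 29.8 TPM on 2.10% and 1.77% of the gene's counts. Grin2b-206, of 601 bases, stood at 9.73 and 13.42 TPM, Grin2b-204, of 703 bases, at 11.24 and 4.24 TPM, and Grin2b-205, of 2461 bases, at 7.90 and 7.43 TPM. In the kallisto-layout table Grin2b-204 was listed at 0 in replicate 1 and at 7.0e-09 TPM in replicate 2, Grin2b-206 stood at 16.2 and 12.01 TPM, and Grin2b-205 at 2.59 and 2.70 TPM. The assumed distance between transcript length and effective length was 100 bases in the RSEM-layout table against 231 and 235 bases in the kallisto-layout table, and it weighs most on such short transcripts. Its part in the difference was not tested.

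Grin2c has 2 coding transcripts with the same 1239 codons and the same last exon, which differ at the 5′ end. Grin2c-201 stood at 13.49 and 10.56 TPM and Grin2c-202, which starts further upstream, at 7.92 and 10.92 TPM. The order turned between the libraries, with Grin2c-202 at 37.0% and 50.8%. In the kallisto-layout table Grin2c-202 led in both libraries at 60.4% and 59.4%, so the leading Grin2c start depended on the estimate.

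Grin2d was carried mainly by Grin2d-201, at 3.86 and 3.12 TPM, with Grin2d-203, which starts further upstream, at 1.39 and 1.14 TPM. Both encode 1323 codons. Grin2d-203 made up 26.5% and 26.8% of this pair, and 29.97% and 29.99% in the kallisto-layout table. The incomplete transcript Grin2d-202 stood at 0.46 and 0 TPM, and at 0.855 and 0.515 TPM in the kallisto-layout table.

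Grin3a showed an isoform difference between the libraries that both tables gave. Grin3a-201, of 1115 codons, stood at 10.73 and 8.72 TPM. Grin3a-202, of 1135 codons, which holds the insert printed above, had 0 TPM in replicate 1, against 2.45 TPM in replicate 2. Its share of the coding pair was 0 and 21.9% in the RSEM-layout table, 3.19% and 23.8% in the posterior means, and 2.26% and 21.7% in the kallisto-layout table.

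The noncoding Grin3a-203, of 3799 bases, stood at 1.51 and 2.99 TPM, and at 1.24 and 2.08 TPM in the kallisto-layout table. With 2 libraries of 1 group there is no way to say whether these Grin3a differences exceed the usual spread between animals. Of the 3 Grin3b transcripts, Grin3b-201 stood at 0.05 and 0.06 TPM and the incomplete Grin3b-202 at 0 and 0.03 TPM, on too few counts for shares to be read.

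Other annotated genes overlap 5 of the 6 detected members. Reads of those on the opposite strand could be shared with the member if strand was not used in counting. Gm22098, Ppp3r2 and Gm12459 lie on the same strand as their member, so strand would not separate their reads. Grin1os, an antisense gene within Grin1, had 1 and 2 counts. Across Grin2b, the antisense gene Gm26653 had 13 and 9 counts, and Gm14329, Gm22892 and Gm14330 were at 0. Gm25837 within Grin2c and Gm22098 within Grin2d were also at 0. Those counts are small beside the counts of Grin1, Grin2b and Grin2c, the lowest of which was 1853.

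Grin2d was the detected member with the most overlapping signal. Gm45441, on the opposite strand over its 3′ end, stood at 3.52 and 4.15 TPM on 78 and 85 counts, against 553 and 504 counts for Grin2d. Kdelr1, also on the opposite strand, overlaps only the far upstream end of the locus and stood at 35.07 and 32.86 TPM. Its 880 and 1008 counts were more than those of Grin2d in each library, but they cover the whole of Kdelr1. Kdelr1 begins at chr7:45872772, and the full-length coding Grin2d-201 and Grin2d-203 reach only to 45867129 and 45870429. Of the 3 Grin2d transcripts only the incomplete Grin2d-202 reaches the overlap, and it had 8.2 and 0 expected counts. How many Kdelr1 counts fell in the overlap was not tested. Within Grin3a, Ppp3r2 on the same strand had 26 and 22 counts and Gm12459 0 and 3, against 1668 and 2101 for Grin3a.

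The libraries were then set against each other, with counts scaled by the trimmed mean of M values and expressed as the log2 ratio of replicate 2 to replicate 1. None of the 6 detected genes differed by 2-fold or more, against 0.290% of the 13097 genes with a mean count of 100 or more. The ratio was 0.07 for Grin1, 0.06 for Grin2a, 0.13 for Grin2b, 0.02 for Grin2c and 0.13 for Grin3a. The median size of the log2 ratio over those 13097 genes was 0.0869, so these 5 genes differed about as much as genes in general.

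Grin2d was the member with the largest distance, with a log2 ratio of -0.34 (counting SE 0.0888). It had fewer counts in the deeper replicate 2, and only 5.54% of the 13097 genes had a larger ratio in either direction. It was also the only detected member with a negative ratio. The ratio of Grin3b, 0.35 with a counting SE of 1.05, rested on 3 and 5 counts and cannot be read.

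Most markers of thalamus and choroid plexus were also lower in replicate 2. The thalamus markers had a median of 15.8 TPM in replicate 1 and 9.87 TPM in replicate 2, none was at 0, and their summed level was 70.2 and 39.4 TPM. Their log2 ratios had a median of -0.82, with Prkcd (34.92 and 14.99 TPM) and Tcf7l2 (9.45 and 4.18 TPM) past 2-fold. The exception in level was Lef1, at 3.74 and 4.75 TPM, although its log2 ratio of scaled counts was -0.24. The choroid plexus markers summed to 442 and 153 TPM with a median log2 ratio of -1.56, of which Ttr stood at 426.21 and 146.34 TPM. Of the 3 with a mean count of 100 or more, Ttr and Clic6 were past 2-fold. Over the 13097 genes the share past 2-fold was 0.290%. Of the cerebellar granule cell markers Zic1 stood at 10.27 and 4.84 TPM, and the other 3, including Gabra6, stayed at or below 0.16 TPM with none at 0.

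The pyramidal cell markers had a median log2 ratio of 0.17 and those of all neurons 0.13. Each of those 11 genes was above 0. Grin1, Grin2a, Grin2b, Grin2c and Grin3a were also above 0, but the median over the 13097 genes was itself 0.0130. Grin2c, at 0.0174 with a counting SE of 0.0457, could not be told from 0 or from that median. The interneuron markers had a median of 0.07, with 5 of 7 above 0, and a median level of 33.1 and 31.5 TPM. Oligodendrocyte markers had a median of -0.31 and astrocyte markers of -0.09, with none above 0. The part of these cell types and of neighbouring tissue in the Grin2d difference was not tested.

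**Figure D5:**
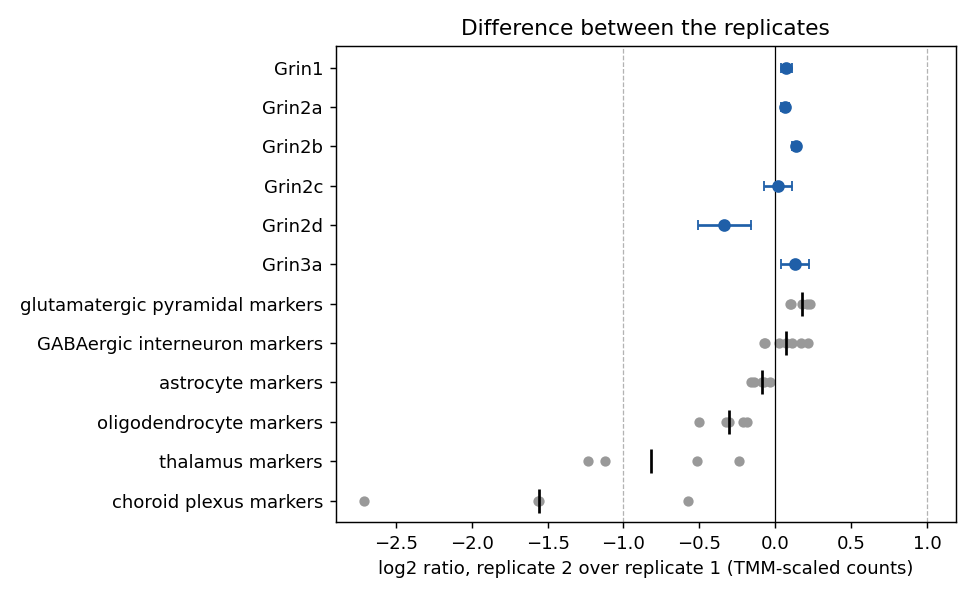
Log2 ratio of replicate 2 to replicate 1 in counts scaled by the trimmed mean of M values, for the 6 detected members (blue points, bars of 95% counting error) and for the genes of 6 marker lists (grey points, with black ticks at the list medians); dashed lines mark 2-fold. Grin2d lies at -0.34, left of the other members, and the medians of the thalamus and choroid plexus markers lie further left; the thalamus marker Lef1 lies to the right of Grin2d at -0.24.

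Genes that supply or remove the co-agonist were present at moderate levels. Of this list, 8 of 10 were detected, against 60.2% of nuclear protein-coding genes, with a median of 19.3 and 18.0 TPM. The highest were Psat1, an enzyme of serine synthesis (57.0 ± 4.23 TPM, n = 2), and Srr, serine racemase, which makes D-serine (33.1 ± 1.09 TPM). The lowest was Slc6a5, the neuronal glycine transporter of brain stem and spinal cord, at 0.06 and 0.03 TPM, and Dao, which degrades D-serine, was the other gene not detected.

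Genes of anchoring, trafficking and auxiliary proteins were all detected, 18 of 18, against 60.2% of nuclear protein-coding genes. Their median was 44.9 and 43.9 TPM. The highest were Nsf, an ATPase of membrane fusion (460 ± 47.8 TPM, n = 2), and Dlg4, which encodes the scaffold PSD-95 that binds GluN2 tails (312 ± 13.1 TPM). The lowest was Actn2, an actin-binding protein that contacts GluN1 and GluN2B (6.90 ± 0.750 TPM). Dlg4 and Nsf both stood above Grin1 in each library.

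Genes of kinases, phosphatases and signalling partners were also all detected, 18 of 18, against 60.2% of nuclear protein-coding genes. Their median was 117 and 119 TPM. The highest were Camk2a, which encodes the kinase that binds the GluN2B tail (1234 ± 84.3 TPM, n = 2), and Calm2, a calmodulin gene (814 ± 54.9 TPM). The lowest was Nos1, the neuronal nitric oxide synthase tethered to the receptor through PSD-95 (26.9 ± 3.13 TPM). None of the 8, 18 and 18 genes of the 3 lists with a mean count of 100 or more differed by 2-fold between libraries. Over the 13097 genes the share was 0.290%, so lists of this size would rarely hold such a gene. Dao, on 5 and 1 counts, and Slc6a5, on 5 and 3, were too low to be read. The median log2 ratio was -0.10 for the co-agonist list, 0.09 for the anchoring list and 0.08 for the kinase list, beside 0.01 over the 13097 genes.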

How the data were processed

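Gene and transcript levels were taken as the authors deposited them: expected counts, TPM and posterior means with credibility bounds in RSEM column layout, and estimated counts and TPM in kallisto column layout, on mm10 with GENCODE M21 per the deposited readme files and the labels. The transcript tables also hold the authors' deposited percent of each transcript in its gene; shares were recomputed from TPM. Aligner, counting settings and strand setting were not given in the sources used here. Per the deposited readme files, the first set was made from transcriptome alignments and the second from a FASTQ file and an index. TPM is scaled by effective length, and isoform TPM is a model estimate where transcripts share exons. Both libraries were made from 300 ng RNA with ERCC spike-ins and a directional kit, per the labels.

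Gene levels, shares and ratios were computed per library with Python 3.11.15 and pandas 2.3.3, as mean ± SD (n = 2). Counts were rounded, filtered at a mean of 10 and scaled with edgeR 4.0.16 in R 4.3.3 (prior count 2); 2-fold calls needed a mean count of 100. With 1 group of 2 libraries no test was run. On simulated counts, 98% of 100 genes changed by a log2 of 1.5 were called, 100% of 100 changed by 3, and 0% of 12870 unchanged genes. The simulated spread was set in advance, not estimated from these libraries, and both changes lay beyond the 2-fold cutoff. In the libraries themselves 0.290% of 13097 genes were called. The simulation therefore checks only how the rule was applied, not how it performs on these libraries. Counting intervals are exact Poisson at 95% and cover counting error only. DESeq2 1.42.0 gave alternative size factors.

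All members, transcripts holding 5% or more of their gene's mean TPM in either layout, every overlapping gene, the 2 highest and the lowest gene of each pathway list and the highest of each marker list were named, and other genes were named after their values were seen. Members and lists were chosen with earlier results of these data known.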

Additional observations from a re-analysis of the deposited data

How the results depend on the processing

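The order of the 7 genes in TPM was the same in the gene table, the kallisto-layout table and the full-length coding transcripts, in each library. Over the alternatives other than leaving out a library, the pathway counts and the absence of 2-fold differences did not change. The number of detected members stayed at 6 except at a threshold of 5 TPM. There it was 5, because Grin2d had 4.26 TPM in replicate 2. The Grin2a over Grin2b ratio reversed in expected counts (0.753) and was 1.39 in the kallisto-layout table. Grin1 over the GluN2 sum was 0.204 in expected counts, 0.608 in the kallisto-layout table and 0.677 over full-length coding transcripts.

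GluN2 shares in the kallisto-layout table were 52.1% for Grin2a, 37.3% for Grin2b and 8.43% for Grin2c; in expected counts 41.1%, 54.7% and 3.31%, with 0.883% for Grin2d; over full-length coding transcripts 47.9%, 39.1%, 10.6% and 2.36%. Levels in the kallisto-layout table were 139 TPM for Grin1, 119 for Grin2a, 85.3 for Grin2b, 19.2 for Grin2c and 11.4 for Grin3a. Over full-length coding transcripts they were 137 for Grin1, 96.9 for Grin2a, 79.2 for Grin2b and 10.9 for Grin3a. Rescaled to nuclear protein-coding genes they were 352 for Grin1, 292 for Grin2a, 248 for Grin2b, 47.9 for Grin2c, 29.9 for Grin3a, 11.2 for Grin2d and 0.156 for Grin3b; rescaled to mouse genes Grin2c was 21.6. The C2 share of Grin1 was 62.5% in expected counts. Alternatives over full-length coding transcripts, posterior means and cassettes were chosen after seeing the data.

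The Grin2d ratio between libraries was negative in all 10 settings (-0.35 to -0.22), and those of the other 5 detected genes were positive. For Grin2c the lowest was 0.0045, in log2(TPM + 1), where the median of all genes was 0.0225. Scaling to spike-in totals shifted the median of all genes to 0.0846. The cause of the changes between estimates was not tested. No paired analysis was possible because there is 1 group of 2 libraries. Low counts limit Grin3b.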
